A study of Mus musculus with 9 samples.

Results

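The subject is the NF-kB pathway and the inflammatory receptors that feed it, taken as 32 genes by symbol from a table of 30579 genes: the NF-kB subunits, their inhibitors, the kinases and adaptors that release them, the receptors and cytokines upstream, and a few of their established targets. All 32 were in the table, and 30 of them passed the filter for testing (at least 1 FPKM in at least 3 libraries), as did 11988 genes in all. FPKM is fragments per kilobase of transcript, scaled to the library's total. The RNA came from mesenchymal stromal cells that were sorted by flow cytometry out of mouse long bones. There were 9 libraries in 3 groups of 3: control mice aged 3 months (young controls), control mice aged 18 months (aged controls), and mice aged 18 months whose genotype is given as Thbs1 knockout (labelled-knockout libraries). All mice had received an antibody to VE-cadherin, an endothelial surface protein, 10 minutes before death. The sources used here give neither the kind of Thbs1 allele nor the strain nor the sort gates. Separate mice are not stated for the libraries within a group, so each p-value reflects no more than the spread among these libraries.

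NF-kB is a family of paired transcription factors that wait in the cytoplasm, bound by IkB proteins. Ligands such as TNF, interleukin-1 and microbial products act through their receptors, the adaptor Myd88, Irak and Traf proteins, and the IkB kinase complex, which marks the IkB proteins for destruction and frees the factors to enter the nucleus. Among the genes they then switch on are their own inhibitors Nfkbia and Tnfaip3, which end the response, and in marrow stromal cells the pathway also drives chemokines and adhesion molecules that act on blood cells.

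Estimated from the steps between low FPKM values, 17.6 to 27.5 M reads stood behind a library (M, mega; 99.2% to 100% of the low values used were whole reads within 0.1). Labelled-knockout library 2 stood apart, with correlations across genes to the other libraries as low as 0.738 and with 13503 genes detected, the lowest number. The estimated share of immunoglobulin reads was 21.6%, 4.27% and 31.9% in aged control libraries 1, 2 and 3, at most 0.17% in young controls and 0.162%, 19.2% and 2.36% in labelled-knockout libraries 1, 2 and 3. The stromal identity of the sort was checked with 13 markers, whose summed level was 10699 to 10919 FPKM in young controls, 4795 to 6920 FPKM in aged controls and 8764 to 10879 FPKM in labelled-knockout libraries. Endothelial markers were near absent (8 markers, summed to 1.81 to 13.4 FPKM in every library). Thbs1 itself was at 35.56, 41.89 and 36.85 FPKM in aged controls and at 24.28, 44.55 and 37.05 FPKM in labelled-knockout libraries. The groups overlapped (log2 fold change −0.15, SE 0.26, limma adjusted p = 0.801; exact two-sided permutation p = 0.9, where 3 against 3 cannot go below 0.1), and over the alternatives the fold change ran from −0.61 (median-ratio rescaling and no labelled-knockout library 2) to 0.09 (adjusted p = 0.0924 to 0.934). A lower level of Thbs1 RNA was thus not shown in the libraries labelled knockout, and every direction drawn from them below rests on that label.

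RefSeq start sites (GRCm38.p6) were available for 26 of the 32 genes, in 35 windows of the 250 bases before a start. For 25 of the 35, the bases after the start were found in a GENCODE M21 transcript of the gene, and for 10 they were not, among them the windows of Nfkbie and Tlr2 printed here (those of Nfkbia and Tnfaip3 were found). The kappaB consensus, the 10-base site that NF-kB binds, was searched on both strands, with overlapping matches counted separately. It was present in a window of 10 of the 26 genes (38.5%), namely Il1r1, Irak1, Nfkb2, Nfkbia, Nfkbie, Rel, Tlr2, Tnfaip2, Tnfaip3 and Traf3, against 8.23% of all 27025 genes in the same table. Counted by window it was 13 of 35, against 7.25% of all 32851 windows. The genes were picked as pathway members, some of them for being targets, and no test was made. The following windows of 2 IkB genes, shown because their RNA behaved differently (below), run 5′ to 3′ in the gene's direction up to the base before its start, with the matches in capitals. Nfkbia lies on the minus strand (chr12:55492648-55492897) and its match begins 29 bases before the start, and Nfkbie lies on the plus strand (chr17:45555450-45555699) with a match 106 bases before the start.
Nfkbia: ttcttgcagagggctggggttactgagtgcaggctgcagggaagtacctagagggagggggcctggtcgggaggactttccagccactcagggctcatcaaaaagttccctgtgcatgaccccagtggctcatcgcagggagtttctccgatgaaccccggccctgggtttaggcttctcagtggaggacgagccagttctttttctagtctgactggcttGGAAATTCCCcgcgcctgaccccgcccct
Nfkbie: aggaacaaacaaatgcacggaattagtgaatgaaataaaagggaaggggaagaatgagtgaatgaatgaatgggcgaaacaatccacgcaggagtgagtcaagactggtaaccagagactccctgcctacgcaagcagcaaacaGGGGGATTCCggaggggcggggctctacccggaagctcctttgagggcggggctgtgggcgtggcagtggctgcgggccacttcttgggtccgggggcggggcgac

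For Tnfaip3, which was higher in aged controls, and for the receptor Tlr2, which lay lower there, 30 bases around a consensus match are shown, both from the minus strand (chr10:19015411-19015440 and chr3:83841762-83841791). Tnfaip3 and Tlr2 had further matches, and those shown begin 12 and 173 bases before the RefSeq start that was used. The GENCODE M21 model of Tnfaip3 reaches upstream to 19015657, so the Tnfaip3 site shown lies inside that gene's span. Bases after a start were sought anywhere in a transcript, so finding them does not place the start. A match is a description of the letters and shows no binding in these cells.
Tnfaip3: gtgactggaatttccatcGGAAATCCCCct
Tlr2: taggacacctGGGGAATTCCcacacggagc

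Aged and young controls were set against each other first, for what differs with age in sorted marrow stroma. Tnfaip3, Tnf and Il1b were above every young control in all 3 aged control libraries, and Nfkbia and Nfkbiz in libraries 1 and 2. The receptors Il1r1, Tnfrsf1a and Tlr2, the adaptor Myd88 and the subunit Relb lay below every young control in all 3. Of the 30 tested genes 30% lay lower without overlap, against 37.4% of all genes, and 13.3% higher, against 7.02%. With immunoglobulin genes left out, only Relb and Tnfrsf1a of the lower genes still lay below every young control. Nfkbia then lay above every young control in all 3 aged controls. Only Tnfaip3 passed the test, as higher: 1 of 30 tested genes (3.33%) against 4.04% of all 11988 genes (2.57% higher), so the share of passing genes was no larger than the background. At an unadjusted p under 0.05 there were 10 of the 30, against 21.7% of all genes, with 4 higher (background 5.96%) and 6 lower (background 15.7%). The median log2 fold change of the 30 was 0.06, where all genes had −0.28, and 16 of the 30 (53.3%) were positive against 25.5% of all genes. Scaling moves that split: 22 were positive and 8 negative after median-ratio rescaling or with immunoglobulin genes left out. The median over all genes moved too, to −0.02 with immunoglobulin genes left out.

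Tnfaip3 encodes a ubiquitin-editing enzyme that shuts off signalling from TNF and Toll-like receptors (chromosome 10, 19000910 to 19015657, minus strand, GRCm38). It was at 9.79, 11.65 and 6.69 FPKM in young controls, at 217.17, 366.38 and 27.08 FPKM in aged controls and at 12.41, 13.18 and 11.84 FPKM in labelled-knockout libraries. Every aged control lay above every other library, but aged control library 3 was far closer to the young controls than to its own group. The means were 9.38 ± 2.51 and 204 ± 170 FPKM (SD, n = 3), for a log2 fold change of 3.69 on log2(FPKM + 1) (SE 0.78, 95% interval 1.94 to 5.44, limma adjusted p = 0.0368). The call was lost without any 1 of young control libraries 1, 2 and 3, aged control libraries 1 and 2 and labelled-knockout library 3 (adjusted p = 0.0535 to 0.228), without the filter (0.0879) and with the replicate block (0.054). Over all 20 alternatives the adjusted p ran from 9.440e-06 to 0.228 and the fold change from 2.95 to 4.80.

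**Figure D1:**
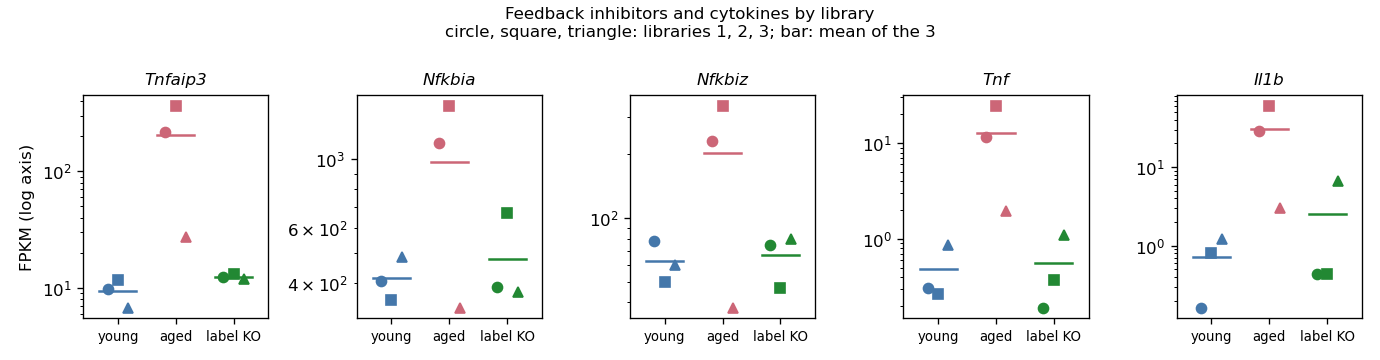
FPKM (log axis) of Tnfaip3, Nfkbia, Nfkbiz, Tnf and Il1b in each library of the 3 groups, with a bar at the mean of 3 libraries. Aged control libraries 1 and 2 lie above all young controls for each gene, and aged control library 3 lies below all young controls for Nfkbia (331.68 FPKM) and Nfkbiz (37.52 FPKM). With immunoglobulin genes left out (not drawn), aged control library 3 lies above all young controls for Nfkbia.

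Nfkbia encodes IkB-alpha, the inhibitor that the pathway remakes first, and its RNA was the most abundant of the 32 genes. It was at 404.74, 353.39 and 485.09 FPKM in young controls, at 1127.27, 1490.58 and 331.68 FPKM in aged controls and at 388.99, 672.14 and 373.43 FPKM in labelled-knockout libraries. Nfkbiz encodes IkB-zeta, a nuclear member of the family that helps switch on late inflammatory genes. It was at 77.85, 50 and 59.93 FPKM in young controls, at 230.96, 339.44 and 37.52 FPKM in aged controls and at 74.67, 46.87 and 79.58 FPKM in labelled-knockout libraries. On FPKM as deposited, aged control library 3 lay below the young range for both genes, so the groups overlapped. Neither passed with age (log2 fold changes 1.0, SE 0.52, limma adjusted p = 0.303, and 1.21, SE 0.69, adjusted p = 0.344). That position depends on scaling. With immunoglobulin genes left out, Nfkbia lay above every young control in all 3 aged controls (1.32, limma adjusted p = 0.171), while Nfkbiz still overlapped. Without aged control library 3 both passed, at 1.66 and 2.17 (range of adjusted p over all alternatives 0.000297 to 0.642 and 0.000771 to 0.690). Nfkbie and Nfkbib, the other cytoplasmic inhibitors, did not follow. Nfkbie, whose window above also holds a match, was at 36.50, 35.74 and 24.97 FPKM in young controls, at 25.79, 34.80 and 22.12 FPKM in aged controls and at 31.34, 18.67 and 29.34 FPKM in labelled-knockout libraries, with all groups overlapping. Nfkbib was at 15.48, 15.56 and 15.16 FPKM, at 13.15, 14.88 and 10.62 FPKM and at 20.12, 9.50 and 14.82 FPKM, and its aged controls lay just below the young ones. As a share of the 3 cytoplasmic inhibitors' summed FPKM, Nfkbia took 87.3% to 92.4% in young controls, 96.7%, 96.8% and 91.0% in aged control libraries 1, 2 and 3, and 88.3%, 96.0% and 89.4% in the labelled-knockout libraries.

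Tnf, the ligand of the TNF receptors, was at 0.31, 0.27 and 0.87 FPKM in young controls, at 11.64, 24.70 and 1.96 FPKM in aged controls and at 0.19, 0.37 and 1.11 FPKM in labelled-knockout libraries. Il1b, the secreted interleukin-1 beta, was at 0.16, 0.80 and 1.21 FPKM, at 28.69, 60.67 and 3.00 FPKM and at 0.44, 0.43 and 6.66 FPKM in the same order. All aged controls lay above all young controls for both cytokines, again with library 2 highest and library 3 lowest. Neither passed (Tnf log2 fold change 2.76, SE 0.66, limma adjusted p = 0.0523; Il1b 3.54, SE 0.97, adjusted p = 0.0789). Tnf did pass in 9 of 19 alternatives, which included median-ratio rescaling (adjusted p = 0.0404, over a range of 1.440e-05 to 0.279), and Il1b in 5 of 20. The low values rest on few reads, an estimated 8 for Tnf and 6 for Il1b in the lowest libraries. Outside the aged controls Tnf reached 1 FPKM only in labelled-knockout library 3, and Il1b only there and in young control library 3. Both cytokines therefore entered the test only with the group where they were high. Il1a, the other agonist of the interleukin-1 receptor, was not tested. It was at 0.00 to 0.23 FPKM in all libraries, an estimated 0 to 9 reads, where 3 reads come to 0.0552 to 0.0864 FPKM (a floor of this kind covers counting error only).

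Summed pan-leukocyte and basophil markers were highest in aged control libraries 1 and 2, as were the 5 genes Tnfaip3, Nfkbia, Nfkbiz, Tnf and Il1b. The summed level of 11 pan-leukocyte markers was 58.6 to 106 FPKM in young controls, 1506, 2005 and 254 FPKM in aged control libraries 1, 2 and 3 and 63.5 to 135 FPKM in labelled-knockout libraries, and 9 of the 10 tested rose with age. Basophils are rare granulocytes rich in Mcpt8, Prss34 and the IgE receptor. A list of 10 basophil markers, drawn up after the data were seen, summed to 10.4 to 33 FPKM in young controls, to 3748, 4254 and 249 FPKM in aged control libraries 1, 2 and 3, and to 3.52 to 48.7 FPKM in labelled-knockout libraries. Mcpt8 alone was at 1020.68, 1375.60 and 75.62 FPKM in aged controls against 2.51, 2.71 and 10.13 FPKM in young controls. This order of library 2, library 1 and library 3, also that of the basophil sum, is shown by the 5 genes. Prss34, at 1543.60, 1319.98 and 83.62 FPKM, and Cpa3, at 207.55, 205.82 and 11.27 FPKM, were instead highest in library 1. Aged control library 3 had leukocyte and basophil sums above every young control. On FPKM as deposited its Nfkbia and Nfkbiz were below every young control. With immunoglobulin genes left out its Nfkbia was above every young control. Il1b was at 6.66 FPKM in labelled-knockout library 3 and at 0.43 FPKM in library 2, whose leukocyte sum (135 against 82.8 FPKM) and basophil sum were higher. Monocyte and macrophage markers summed to 23.9 to 42.9 FPKM in young controls, to 616, 130 and 965 FPKM in aged control libraries 1, 2 and 3 and to 17.3 to 818 FPKM in labelled-knockout libraries, and 0 of 5 tested passed in limma. Most of that sum was Ly6c2, at 578.14, 99.07 and 941.28 FPKM in aged controls, lowest in library 2. Ccr2, at 8.09, 10.04 and 0.60 FPKM, and Adgre1, at 1.07, 2.46 and 0.15 FPKM, had the order of Tnfaip3. Csf1r, at 1.18, 1.49 and 0.66 FPKM, had that order too, but was at 1.33 to 1.64 FPKM in young controls. C1qa was at 0.07, 0.14 and 0.28 FPKM, lowest in library 1. B lineage and plasma cell markers, summed to 121 to 134 FPKM in young and to 3010, 744 and 3161 FPKM in aged controls, had another order, with library 2 lowest (7 of 10 tested rose). The other lists were neutrophil (2 of 8 tested rose), T and NK (1 of 1, Nkg7), endothelial (1 of 1, Pecam1), erythroid (0 of 5) and chondrocyte (0 of 8). No gene of these passed as lower. Chondrocyte markers summed to 112 to 279 FPKM in young and to 12.3 to 15.6 FPKM in aged controls, with a median log2 fold change of −2.39. Nkg7 and Pecam1, the only tested markers of 6 and of 8, reached 1 FPKM only in aged controls, as did Mpo and Cxcr2 of the neutrophil list. They passed the filter only through the group where they were high. Leukocyte markers Lcp1, Laptm5, Spi1, Cd37 and Cytip likewise passed it only with the aged controls. So did the B lineage markers Cd79a, Cd79b, Ms4a1, Mzb1, Pou2af1, Irf4 and Tnfrsf17. The counts that rose in these lists thus rest in part on genes that the aged controls brought into the test. The part of these cells in the values of the 5 genes was not tested, and in bulk libraries fewer cells of a type and less RNA per cell cannot be told apart.

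**Figure D2:**
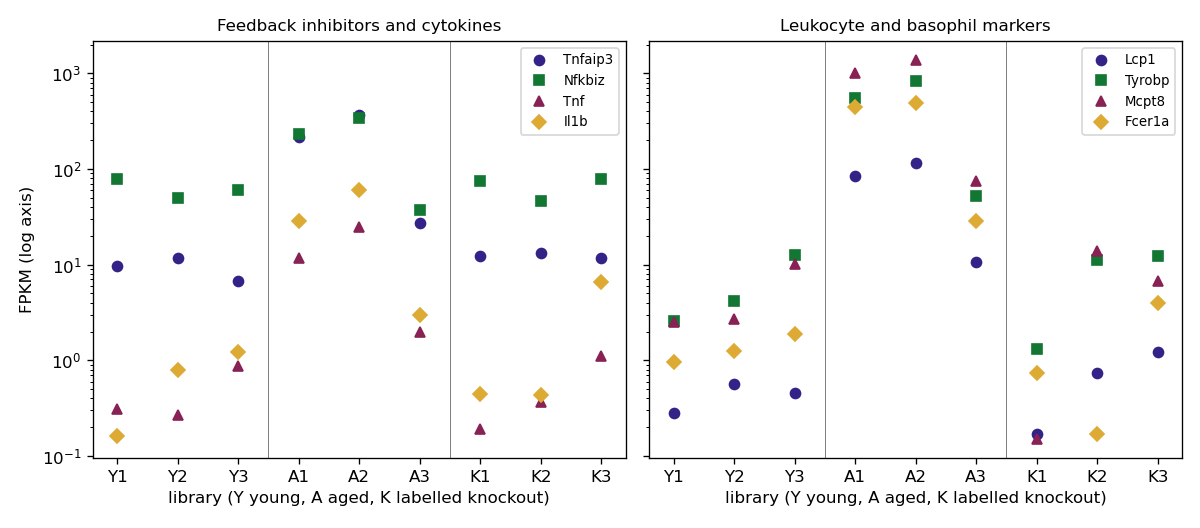
FPKM (log axis) per library of Tnfaip3, Nfkbiz, Tnf and Il1b on the left and of the leukocyte genes Lcp1 and Tyrobp and the basophil genes Mcpt8 and Fcer1a on the right. All 8 genes are highest in aged control library 2, and next highest in aged control library 1. The basophil genes Prss34 and Cpa3, not drawn, were highest in aged control library 1.

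The receptors lay on the other side. Il1r1, the signalling receptor for interleukin-1, was at 45.81, 38.67 and 31.43 FPKM in young controls, at 13.67, 26.06 and 20.90 FPKM in aged controls and at 32.19, 29.74 and 25.65 FPKM in labelled-knockout libraries. Tnfrsf1a, the widely expressed TNF receptor and the most abundant receptor here, was at 105.63, 100.50 and 83.36 FPKM, at 45.55, 73.57 and 48.68 FPKM and at 122.02, 78.16 and 93.66 FPKM. All 3 aged controls were below all 3 young controls for both receptors.

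Tlr2, which senses bacterial lipoproteins, was at 11.79, 9.98 and 9.63 FPKM in young controls, at 5.5, 6.29 and 6.32 FPKM in aged controls and at 8.92, 5.87 and 9.44 FPKM in labelled-knockout libraries. Myd88, the adaptor that Toll-like and interleukin-1 receptors share, was at 70.18, 64.77 and 57.20 FPKM, at 37.56, 53.60 and 28.51 FPKM and at 66.01, 45.62 and 66.80 FPKM. Aged and young controls did not overlap for either gene. Icam1, an NF-kB target through which leukocytes adhere, was at 43.24, 35.05 and 30.69 FPKM, at 17.32, 23.56 and 21.30 FPKM and at 43.27, 22.64 and 31.53 FPKM, again with no overlap between the control groups.

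None of these 5 passed with age. The log2 fold changes were −0.93 for Il1r1 (SE 0.27, limma adjusted p = 0.0908), −0.80 for Tnfrsf1a (adjusted p = 0.125), −0.78 for Icam1 (0.141), −0.71 for Myd88 (0.175) and −0.70 for Tlr2 (0.116), beside a median of −0.28 over all genes. Rescaling the libraries by median ratios moved that median to 0.00 and the 5 values to between −0.60 and −0.38, and the fold changes kept their sign in every alternative. Without labelled-knockout library 2, which shares the estimate of spread, 4 of the 5 passed (not Myd88), in a fit where 2729 of 11823 genes passed. The stromal marker list moved the same way (median −0.79, with 3 of 13 falling), and its part in the receptor values was not tested.

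Not every receptor lay lower. Tnfrsf1b, the second TNF receptor, was at 22.47, 22.75 and 12.41 FPKM in young and at 15.99, 25.12 and 21.46 FPKM in aged controls, and at 40.15, 8.30 and 29.71 FPKM in labelled-knockout libraries (log2 fold change 0.14, 95% interval −1.01 to 1.29). Tlr4, the endotoxin receptor, was at 6.63, 5.78 and 4.94 FPKM in young, at 5.42, 5.27 and 4.73 FPKM in aged controls and at 3.68, 11.51 and 4.28 FPKM in labelled-knockout libraries (−0.14, interval −0.93 to 0.65). Cd40, a receptor of B cells and antigen-presenting cells, was not tested. It was at 0.00 to 0.04 FPKM in young controls, at 0.43, 0.22 and 0.68 FPKM in aged controls and at 0.00 to 0.18 FPKM in labelled-knockout libraries, an estimated 0 to 48 reads in a library.

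**Figure D3:**
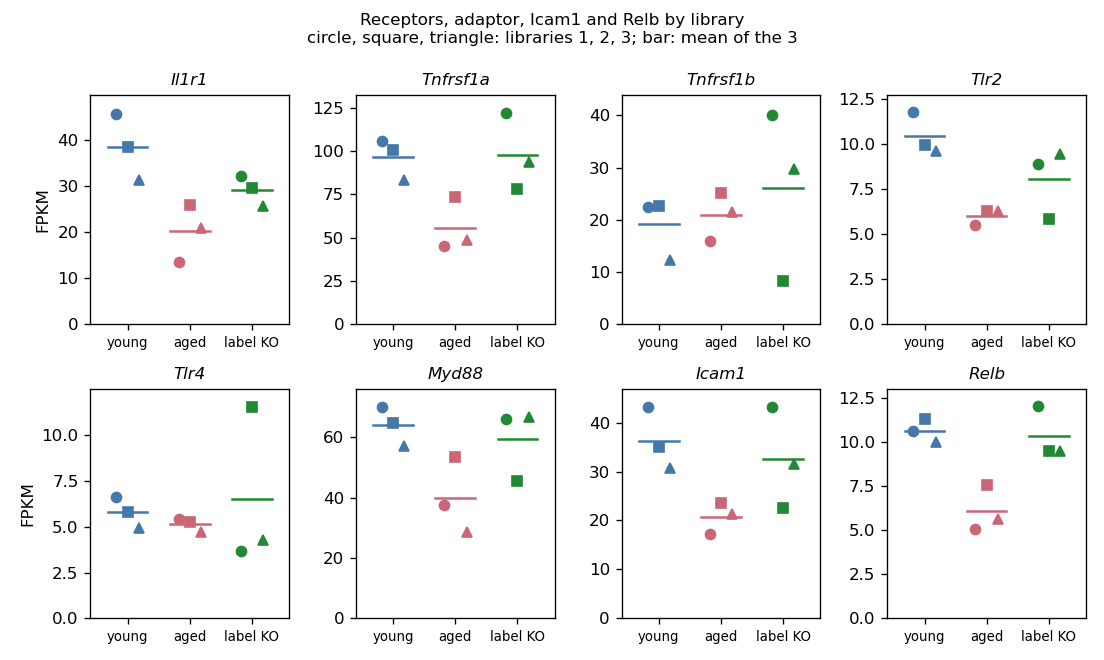
FPKM of the receptors Il1r1, Tnfrsf1a, Tnfrsf1b, Tlr2 and Tlr4 and of Myd88, Icam1 and Relb, by library and group, with a bar at each mean and axes from 0. For Il1r1, Tnfrsf1a, Tlr2, Myd88, Icam1 and Relb all 3 aged controls lie below all 3 young controls, while Tnfrsf1b and Tlr4 overlap.

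Among the subunits themselves, Rela, the main activating subunit, was the most abundant in young and aged controls. It held 44.6% to 49.6% of the summed FPKM of the 5 subunits in young and 46.8% to 49.7% in aged controls. It was at 37.45, 33.56 and 25.24 FPKM in young controls, at 32.09, 36.04 and 24.96 FPKM in aged controls and at 37.04, 17.03 and 40.41 FPKM in labelled-knockout libraries. Nfkb2, the precursor of the slower non-canonical branch, came next, at 21.60, 19.45 and 14.27 FPKM, at 18.48, 20.48 and 14.82 FPKM and at 24.41, 24.32 and 17.63 FPKM. The groups overlapped for both, and their log2 fold changes with age were −0.04 (interval −0.80 to 0.72) and −0.03 (interval −0.58 to 0.52). Relb, the partner of Nfkb2 in that branch, was at 10.64, 11.29 and 9.99 FPKM in young controls, at 5.07, 7.56 and 5.66 FPKM in aged controls and at 12.02, 9.49 and 9.48 FPKM in labelled-knockout libraries. The aged controls were thus below both other groups without overlap, though the difference from young controls did not pass (log2 fold change −0.73, SE 0.21, limma adjusted p = 0.0946). Nfkb1, the precursor of the p50 subunit, was at 3.39, 3.95 and 4.85 FPKM in young controls, at 6.90, 9.42 and 3.00 FPKM in aged controls and at 3.17, 12.35 and 2.46 FPKM in labelled-knockout libraries, and Rel, a subunit typical of lymphocytes, at 1.43 to 2.37 FPKM, at 2.81, 3.58 and 1.77 FPKM and at 1.25 to 3.37 FPKM. Aged control libraries 1 and 2 were above the young controls for both genes and library 3 was not. With immunoglobulin genes left out, all 3 aged controls lay above every young control for both.

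In the kinase complex the catalytic subunit Chuk was the most abundant, at 14.29, 12.48 and 13.77 FPKM in young controls, at 9.95, 12.41 and 9.76 FPKM in aged controls and at 11.18, 2.67 and 13.16 FPKM in labelled-knockout libraries. Its aged controls lay just below its young controls. Ikbkb, the catalytic subunit of the canonical branch, was at 2.46, 2.49 and 1.45 FPKM in young controls, at 5.51, 7.17 and 2.09 FPKM in aged controls and at 2.09, 0.37 and 2.64 FPKM in labelled-knockout libraries. Its share of the complex's summed FPKM was 8.20% to 11.8% in young controls and 27.3%, 28.1% and 13.5% in aged control libraries 1, 2 and 3. Ikbkb thus followed the same order as Tnfaip3 among the aged controls, but did not pass (log2 fold change 0.82, SE 0.45, limma adjusted p = 0.324). The scaffold subunit Ikbkg overlapped between the control groups, at 2.47 to 6.12 FPKM in young and 3.68 to 5.94 FPKM in aged controls, and was at 1.81 to 5.24 FPKM in labelled-knockout libraries.

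Traf1, an adaptor that is itself an NF-kB target, was at 0.80, 0.59 and 0.62 FPKM in young and 1.87, 2.01 and 1.08 FPKM in aged controls (log2 fold change 0.65, limma adjusted p = 0.173). These groups did not overlap, and labelled-knockout libraries were at 0.62 to 1.59 FPKM. Outside the aged controls Traf1 reached 1 FPKM only in labelled-knockout library 2, so it passed the filter only with the aged controls. Traf2, an adaptor of the TNF receptors, was at 10.81, 11.29 and 6.81 FPKM in young controls, at 8.37, 8.82 and 6.49 FPKM in aged controls and at 12.01, 2.53 and 11.48 FPKM in labelled-knockout libraries. Birc2, a ubiquitin ligase of the TNF receptor complex, was at 12.72, 10.16 and 9.62 FPKM, at 13.56, 14.66 and 11.12 FPKM and at 10.01, 7.53 and 9.94 FPKM, and its labelled-knockout libraries were below every aged control. Birc3, a related ligase, was at 16.29, 14.20 and 12.85 FPKM, at 16.40, 22.36 and 11.35 FPKM and at 14.62, 7.63 and 12.22 FPKM. Irak1, a kinase downstream of Myd88, stayed within a narrow band, at 21.62, 24.38 and 17.65 FPKM, at 23.73, 21.75 and 19.67 FPKM and at 21.49, 25.75 and 21.83 FPKM. Traf2, Traf3 and Traf6, the inhibitors of apoptosis Birc2 and Birc3, and the kinase Irak1 overlapped between the control groups, with log2 fold changes of −0.24 to 0.26. Traf3 was at 1.56 to 2.05 FPKM in young controls, 1.94 to 2.06 FPKM in aged controls and 0.60 to 2.52 FPKM in labelled-knockout libraries, and Traf6 at 2.44 to 4.93, 3.38 to 4.70 and 3.17 to 4.19 FPKM. Tnfaip2, a TNF-induced protein of membrane protrusions, was at 18.04, 17.68 and 14.65 FPKM in young and at 11.71, 13.11 and 10.31 FPKM in aged controls (−0.49, adjusted p = 0.348).

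Counted over the 30 tested genes, the aged and young controls did not overlap for 13, of which 4 were higher (Tnfaip3, Tnf, Il1b and Traf1) and 9 lower (Il1r1, Tnfrsf1a, Tlr2, Myd88, Icam1, Relb, Tnfaip2, Chuk and Nfkbib). Of the 4 higher genes, Tnf, Il1b and Traf1 passed the filter only with the aged controls, the group where they were high. Among all genes 44.4% did not overlap, 7.02% higher and 37.4% lower. The 13 genes are 43.3% of the 30, close to that background. The split depends on scaling: 9 were higher and 5 lower after median-ratio rescaling, and 10 higher and 2 lower (Relb and Tnfrsf1a) with immunoglobulin genes left out. Without aged control library 3 it was 11 higher and 9 lower. The shares over all genes under these settings are not given here. The median log2 fold change over all genes moved as well, from −0.28 to −0.02 with immunoglobulin genes left out. These shifts therefore cannot be read as particular to the 30. The number of the 30 that passed with age also moved, from 1 to 5 without aged control library 3 and to 9 without labelled-knockout library 2. Over all genes 356 of 11780 and 2729 of 11823 passed in those 2 fits, against 484 of 11988 in the main fit.

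**Figure D4:**
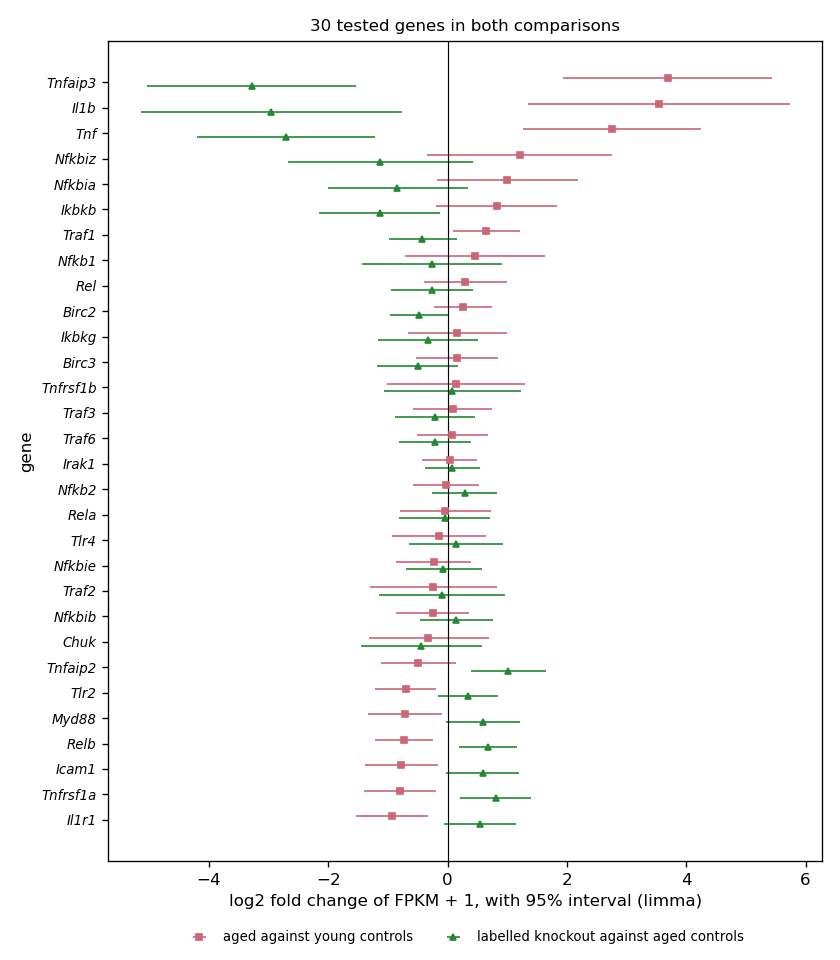
Log2 fold changes of FPKM + 1 with 95% intervals for the 30 tested genes, aged against young controls (squares) and labelled-knockout libraries against aged controls (triangles). The comparisons share the aged controls, so the opposite positions of the symbols are not independent; Tnfaip3 (3.69 and −3.28) lies at one end and Il1r1 (−0.93 and 0.55) at the other.

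The wider pathway was followed in 3 lists of other genes. Over all tested genes 4.04% passed with age in limma, 21.7% had an unadjusted p under 0.05 and the median log2 fold change was −0.28. Of 18 tested receptors and adaptors none passed with age in limma (2 at an unadjusted p under 0.05, median −0.26). Of 25 kinases, ubiquitin enzymes and inhibitors 2 rose and none fell (median −0.11). Nfkbid, a further nuclear IkB protein, was at 0.983 ± 0.471 FPKM in young and 62.6 ± 54.4 FPKM in aged controls (SD, n = 3; log2 fold change 4.35, SE 0.85, limma adjusted p = 0.0293). Its libraries were at 64.96, 115.77 and 7.04 FPKM in the aged group, the order of Tnfaip3. Cyld, a deubiquitinase that restrains the pathway, behaved otherwise: it was even across the aged controls, at 5.20, 5.34 and 4.81 FPKM, against 2.45, 2.14 and 1.95 FPKM in young controls (0.95, SE 0.20, adjusted p = 0.0371).

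Of 23 other tested targets 2 rose and 2 fell (median −0.20), where 4.04% of all genes passed in either direction. The neutrophil chemokine Cxcl2 and the prostaglandin enzyme Ptgs2 rose, from 1.35 ± 0.737 to 48.7 ± 43.0 FPKM and from 1.35 ± 0.380 to 55.4 ± 54.1 FPKM (limma adjusted p = 0.0293 and 0.0397). Both were highest in aged control library 2, at 93.50 and 113.87 FPKM, and lowest in library 3, at 7.87 and 7.01 FPKM. Gadd45b, a stress-response protein, fell, with means of 193 ± 15.1 and 71.7 ± 17.2 FPKM in the young and aged groups (−1.45 on the log2 scale, SE 0.24, adjusted p = 0.0178), as did Ccl2, the monocyte chemokine (−2.09, adjusted p = 0.0265). All 6 calls were lost when single libraries were left out: that of Cyld in 7 of 9 fits, those of Nfkbid, Cxcl2, Ptgs2 and Ccl2 in 5 and that of Gadd45b in 4. Each of young control libraries 1, 2 and 3 and aged control library 1 ended all 6, aged control library 2 ended all but those of Gadd45b and Ccl2, aged control library 3 ended those of Cyld and Ccl2 and labelled-knockout library 3 that of Cyld (adjusted p = 0.0510 to 0.239). Of 24 early-response and sort-stress genes, which follow cell handling, 4 fell (Atf3, Socs3, Egr2 and Myc) and none rose (median −0.23), and their part in the values above was not tested.

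The comparison of labelled-knockout libraries with aged controls addresses the effect of the Thbs1 genotype at equal age, with the reservation on Thbs1 RNA given above. Here Tnfaip3 and Tnf lay lower and Relb, Tnfrsf1a and Tnfaip2 higher in every labelled-knockout library. Groups did not overlap for 20% of the 30, against 23.1% of all genes. No gene of the 30 passed in limma, where 3.48% of all genes did. At an unadjusted p under 0.05 there were 7 of 30 (23.3%), against 19.8% of all genes, with 3 higher (background 12.5%) and 4 lower (background 7.3%). Positive fold changes were 12 of 30, against 55.7% of all genes. The median log2 fold change of the 30 was −0.15 and that of all genes 0.07.

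Tnfaip3 was at 12.5 ± 0.672 FPKM in labelled-knockout libraries against 204 ± 170 FPKM in aged controls (SD, n = 3), a log2 fold change of −3.28 (SE 0.78, interval −5.03 to −1.53, limma adjusted p = 0.0544). Tnf, which passed the filter only with the aged controls, was at 0.557 ± 0.488 against 12.8 ± 11.4 FPKM (−2.71, SE 0.66, limma adjusted p = 0.0603). Both lay just short of the threshold and passed after median-ratio rescaling (adjusted p = 0.0384 and 0.0403) and with immunoglobulin genes left out, and Tnfaip3 also after quantile normalization, over ranges of 4.300e-05 to 0.284 and 0.000153 to 0.293. Il1b was lower by −2.95 (SE 0.97, adjusted p = 0.137) and overlapped, since labelled-knockout library 3 (6.66 FPKM) was above aged control library 3. Nfkbia (−0.84, adjusted p = 0.409), Nfkbiz (−1.13, adjusted p = 0.401) and Ikbkb (−1.14, adjusted p = 0.205) overlapped as well. Leukocyte transcripts were lower beside these genes: 7 of the 10 tested pan-leukocyte markers fell (median −3.91), and the basophil sum was at most 48.7 FPKM in labelled-knockout libraries. Several of those leukocyte markers, named above, were tested only through the aged controls. The part of leukocyte transcripts in the values of these genes was not tested.

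On the higher side, Tnfaip2 was at 19.54, 38.46 and 19.97 FPKM in labelled-knockout libraries, above all aged controls (log2 fold change 1.02, SE 0.28, limma adjusted p = 0.0867). Library 2, which stands apart, was the highest; without it the log2 fold change was 0.71, and it passed in that fit (adjusted p = 0.0297, range 0.000271 to 0.334). Relb (0.68, SE 0.21, adjusted p = 0.122) and Tnfrsf1a (0.81, SE 0.27, adjusted p = 0.137) were higher without overlap. Icam1 (0.59, adjusted p = 0.271), Myd88 (0.59, adjusted p = 0.273), Il1r1 (0.55, adjusted p = 0.296) and Tlr2 (0.35, adjusted p = 0.433) overlapped, each with 1 or more labelled-knockout libraries inside the aged range. The stromal markers were higher beside these genes (2 of 13 rose, median 0.53), as were chondrocyte markers (6 of 8 rose), which summed to 12.3 to 15.6 FPKM in aged controls and to 1068, 144 and 2861 FPKM in labelled-knockout libraries, and their part was not tested. Without labelled-knockout library 2, Relb, Tnfrsf1a, Icam1, Tnfaip2, Tnfaip3 and Tnf passed, 6 of 30, where 1895 of 11823 genes did. Without aged control library 3 Tnfaip3, Tnf, Il1b and Nfkbiz passed, where 374 of 11780 genes did. The 6 genes whose groups did not overlap (Tnfaip3, Tnf and Birc2 lower; Relb, Tnfrsf1a and Tnfaip2 higher) are 20% of the 30, against 23.1% of all genes (6.54% lower and 16.6% higher). They became 11 after median-ratio rescaling (6 lower), 10 with immunoglobulin genes left out (7 lower), 15 without labelled-knockout library 2 and 13 without aged control library 3. The shares over all genes under these settings are not given here, so these counts stand without a background.

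Labelled-knockout library 2 also stood apart within this gene set. It had the highest Nfkb1 of all 9 libraries (12.35 FPKM), the highest Tlr4 (11.51 FPKM) and the lowest Rela (17.03), Ikbkb (0.37), Chuk (2.67), Traf2 (2.53), Traf3 (0.60) and Tnfrsf1b (8.30 FPKM). The SD of Nfkb1 in its group, 5.52 FPKM around a mean of 5.99, rests on that library.

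In the wider lists, Cyld (log2 fold change −1.11, SE 0.20, limma adjusted p = 0.0262), Nfkbid (−4.02, adjusted p = 0.0383) and Ptgs2 (−3.70, adjusted p = 0.0491) fell in labelled-knockout libraries, and Gadd45b (1.39, adjusted p = 0.0239), Ccl2 (1.92, adjusted p = 0.0353) and Cxcl10, an interferon- and NF-kB-induced chemokine (1.69, adjusted p = 0.0476), rose. That makes 2 falls among 25 kinases, ubiquitin enzymes and inhibitors (median −0.09), 1 fall and 3 rises among 23 targets (median 0.10), and no pass among 18 receptors and adaptors (4 at an unadjusted p under 0.05, median −0.06). Over all genes 3.48% passed, 19.8% had an unadjusted p under 0.05 and the median was 0.07. Cyld was at 1.91, 1.45 and 2.20 FPKM, below every aged control, and Gadd45b at 183.04, 178.48 and 197.87 FPKM, above every aged control. In the 9 fits without 1 library each of the 6 calls was lost in 6 to 8, among them the fits without aged control library 1 or 2 and without labelled-knockout library 1 or 3 for all 6 genes, without young control library 1 for all 6, library 2 for all but Cxcl10 and library 3 for all but Gadd45b, and without aged control library 3 for Ccl2 and Cxcl10 (adjusted p = 0.0509 to 0.249). Median-ratio rescaling ended the calls of Ccl2 in both comparisons and that of Cxcl10. Of the early-response and sort-stress genes 5 of 24 rose (Atf3, Socs3, Egr2, Klf4 and Klf2) and none fell (median 0.56).

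Between labelled-knockout libraries and young controls, which differ in both age and genotype, no gene of the 30 passed in limma and none had an unadjusted p under 0.05, where 0.025% and 8.63% of all genes did. Log2 fold changes ran from −0.76 (Chuk) to 0.59 (Il1b), with a median of −0.07 beside −0.16 for all genes. Tnfaip3 was higher without overlap by 0.41 (interval −1.34 to 2.15), as was Tnfaip2 by 0.54 (interval −0.09 to 1.17), and Tlr2 was lower by −0.36 (interval −0.86 to 0.15). Those 3 genes are 10% of the 30, where 17.5% of all genes did not overlap (4.08% higher and 13.4% lower). They became 7 without young control library 3 or labelled-knockout library 1, 8 without labelled-knockout library 2 and 5 without labelled-knockout library 3, again with no share over all genes given. The intervals of Tnf (0.05, −1.44 to 1.54) and Il1b (0.59, −1.60 to 2.78) are wide, so these libraries leave room for a sizeable difference in either cytokine. Of the wider lists no gene passed in limma, and at an unadjusted p under 0.05 there were 2 of 18 receptors and adaptors, 1 of 25 kinases, ubiquitin enzymes and inhibitors and 0 of 23 targets (medians −0.25, −0.17 and 0.16).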

How the data were processed

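Cells were sorted into TRIzol-LS, and SMART-Seq v4 was applied to 2 ng of RNA, per the labels' protocols. The authors deposited FPKM with 1 column for each library. FastQC 0.11.5, STAR, edgeR and the build GRCm38 (mm10) appear in the submitters' processing notes with no role. Annotation, read counting and strand are not stated there. Since FPKM is relative to the library's total, immunoglobulin genes at up to 31.9% of reads lower all other values there.

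Columns were matched to samples by title and groups came from the genotype label. Limma 3.58.1 (R 4.3.3) took log2(FPKM + 1) and a trend of variance with intensity, for genes with at least 1 FPKM in at least 3 libraries, all 9 libraries in 1 fit (6 residual degrees of freedom). Benjamini-Hochberg adjustment ran over all tested genes, threshold 0.05. A fold change on this scale understates that of low genes. Depths were sought between 5 and 60 M reads from genes with 200 to 500 exonic bases in GENCODE M21. The procedure was tested on simulated data. Members and lists were chosen with earlier results of these data known; the 10 basophil markers were added after the data were seen. All members are accounted for. Values by library are given for members that pass, reach a mean of 5 FPKM in a group or have a particular role, other values by range; of the wider lists passing genes are named, at most 6 a comparison. Python 3.11.15, numpy 2.4.6, pandas 2.3.3 and matplotlib 3.10.9 were used. Alternatives were other pseudocounts, filters, scalings, weights and sample sets.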

Additional observations from a re-analysis of the deposited data

How the results depend on the processing

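Of 554 values of the named members' fold changes over the alternatives, none changed sign, 72 passed where the reported value did not and 8 (all Tnfaip3) lost the call. For other pathway genes 111 of 278 values lost a call and none changed sign. Thbs1 turned to 0.09 without labelled-knockout library 1 (lowest of the 9 such fits −0.33), and was lowest, −0.61, with median-ratio rescaling and no labelled-knockout library 2. Of the members 1, 0 and 0 passed in aged against young controls, labelled knockout against aged and labelled knockout against young controls. In aged against young controls the count was 2 with a pseudocount of 0.1, median-ratio rescaling, immunoglobulin genes left out or quantile normalization, 0 without a filter or with the replicate block, 9 with the 6 compared libraries alone, 20 with array weights (whose estimate did not converge), 5 with median-ratio rescaling and no labelled-knockout library 2, and 0 to 9 without 1 library. In labelled knockout against aged controls it was 2 with either of those rescalings, 1 with quantile normalization, 20 with array weights, 4 with median-ratio rescaling and no labelled-knockout library 2, and 0 to 6 without 1 library. Against young controls it was 1 with array weights. Genes passing over the whole table were 484, 417 and 3. They became 138 and 92 without a filter, 199 with a minimum of 5 FPKM (labelled knockout against aged), 7419, 6347 and 1414 with array weights, 2155 and 14 with the compared libraries alone, 120 and 64 with the replicate block, 1268, 1354 and 49 with median-ratio rescaling and no labelled-knockout library 2, and 4 to 2729, 13 to 1895 and 2 to 37 without 1 library. Members without overlap, 13, 6 and 3, became 11 and 10 for labelled knockout against aged controls with the rescalings and 13 to 20, 6 to 15 and 3 to 8 without 1 library. Against young controls both rescalings gave 2. The shares over all genes without overlap are given for the main setting only. Same-numbered libraries of different groups did not deviate together (correlations of deviations −0.288 to 0.302), so the replicate block rests on a number alone. Il1a was near the limit of depth in all libraries and Cd40 in young controls, and with 3 libraries a group small changes were out of reach.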
